A study of Homo sapiens with 10 samples.

Results

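The gene set described here is 9 genes of vitamin A handling and retinoic acid signalling, taken from the deposited count table by gene symbol: STRA6, DHRS3, ALDH1A3, CYP26B1, CRABP1, CRABP2, RARA, RARB and RARG. All 9 were found among the 58735 genes of the table. The 10 sequenced libraries were made from poly(A) RNA of CH157-MN, a human cell line that was established from a meningioma. The PBS group (5 libraries) received phosphate-buffered saline. The ADC group (5 libraries) was given 100 nM of a conjugate of drug and humanised antibody (an antibody-drug conjugate), with an antibody to the somatostatin receptor SSTR2 carrying the tubulin inhibitor monomethyl auristatin F (MMAF), and was harvested 3 days later. The labels give the day for the treated cells alone, and no group received free MMAF, an untargeted conjugate or a retinoid. The members were chosen by biological role with the CPM difference between these groups already known, that of DHRS3 above all, so the values of its 9 genes in ADC and PBS libraries are a description and carry no p-value.

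Vitamin A (retinol) enters cells in part through the membrane receptor STRA6. Retinol dehydrogenases oxidise it to retinal, which DHRS3 reduces back to retinol, while aldehyde dehydrogenases of the ALDH1A family oxidise retinal to retinoic acid. The small carrier proteins CRABP1 and CRABP2 hold retinoic acid in the cell, CYP26 enzymes oxidise it for removal, and the nuclear receptors RARA, RARB and RARG bind it and act with an RXR partner at repeated hexamer sites in DNA. DHRS3, RARB, CRABP2, STRA6 and the CYP26 genes are themselves known to be induced by retinoic acid in many cell types.

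The receptor hexamer was looked for in the RefSeq promoter windows of all 9 genes (GRCh38.p14, from 250 bases before to 50 after the start), on either strand, as the consensus AGGTCA, as its close form GGGTCA, as the form AGTTCA found in known response elements, or as its counterpart GGTTCA. On 1 strand a word that starts with A can share that base with the end of another, and no matches in the 9 windows overlapped. At least 1 match was present in 4 of the 9 windows, those of CRABP2, RARA, RARB and STRA6, and in 38.7% of 27305 promoters of this length. A direct repeat of such words spaced by 1, 2 or 5 bases was present in the window of RARB alone among the 9. It was present in 0.256% of all promoters. The words were taken in part from known response elements, so this share does not make the RARB repeat an unexpected find. The 250 bases before the start are shown for RARB, which holds the repeat, for RARA, its paralog with 2 separate matches, and for DHRS3, the gene with the largest difference between the groups. Each is written 5′ to 3′ on the strand of the gene, with matches on either strand in capitals.
RARB, chr3:25428013-25428262, plus strand: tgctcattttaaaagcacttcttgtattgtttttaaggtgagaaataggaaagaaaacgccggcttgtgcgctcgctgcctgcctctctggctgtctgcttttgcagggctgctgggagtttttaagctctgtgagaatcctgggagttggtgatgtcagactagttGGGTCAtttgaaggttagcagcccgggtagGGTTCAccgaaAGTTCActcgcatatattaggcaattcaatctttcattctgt
RARA, chr17:40308930-40309179, plus strand: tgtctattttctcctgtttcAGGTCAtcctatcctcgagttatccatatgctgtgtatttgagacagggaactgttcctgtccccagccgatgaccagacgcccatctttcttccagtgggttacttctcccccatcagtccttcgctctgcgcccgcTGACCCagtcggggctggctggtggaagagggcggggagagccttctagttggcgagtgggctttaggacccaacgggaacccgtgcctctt
DHRS3, chr1:12618211-12618460, minus strand: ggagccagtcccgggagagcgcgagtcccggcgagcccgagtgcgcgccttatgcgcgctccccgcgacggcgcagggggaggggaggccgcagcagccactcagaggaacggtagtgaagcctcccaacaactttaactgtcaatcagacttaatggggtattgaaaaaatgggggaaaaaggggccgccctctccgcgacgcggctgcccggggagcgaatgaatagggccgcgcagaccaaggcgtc

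In RARB the repeat starts at base -53, counted back from the start, and consists of GGTTCA followed, after a gap of 5 bases, by AGTTCA. Another match lies at -83. This RefSeq start lies inside the gene, 253931 bases from the outermost start of the counted gene model. In RARA the matches lie at -230 and, on the opposite strand, at -92. The STRA6 window held 3 matches, at -206, -180 and -22, with no repeat of the searched spacing. The DHRS3 window held none, and its RefSeq start lies 479 bases upstream of the gene model that was counted, so it covers none of the starts in that model. A match is a string of letters and not a site of binding, and the absence of a match concerns these windows only.

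Total counts were 28262162 to 36463724 per library. In every library 65.4% to 67.3% of counts from 2 to 21 were even, so a count may be 1 mate of a pair and 2 counts can come from 1 fragment. An observed 0 allows up to 3 counts, or 0.0819 to 0.106 CPM (counts scaled to a common library total, here with TMM factors), for counting error only and with each count taken as its own fragment. The difference between groups was fitted over 14504 genes with edgeR's quasi-likelihood test, and 3018 of them (20.8%) passed an adjusted p of 0.05 (10.8% of the tested genes higher in ADC). Scaled to library size alone, 63.3% of the calls were higher in ADC, where the main scaling gave 51.8%. The labels do not say that replicates were separate cultures, so errors and p-values describe the spread between these libraries, which may be technical. Of 8 meningioma and arachnoid markers, the mesenchymal VIM was at 3260 to 3620 CPM in every library, CDH2 at 112 to 129 and NF2 at 50.9 to 59.7. PGR and S100B were at 0 in all 10, and PTGDS, MUC1 and SSTR2 stayed under 1 CPM. Of 5 epithelial markers KRT18 was the highest, at 199 to 231 CPM, and EPCAM and CDH1 stayed under 1 CPM. SSTR2, the target of the antibody, was at 0.297 ± 0.263 CPM with PBS and 0.429 ± 0.103 CPM with ADC (SD, n = 5 each).

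DHRS3 and RARG were higher in every ADC library than in any PBS library, and they are the 2 of the 9 genes that passed the threshold over all genes. ALDH1A3, RARB, STRA6 and CRABP2 had higher means in ADC with overlapping groups, CYP26B1 had a lower mean with overlapping groups, RARA was nearly level and CRABP1 had no count. Of the 9 genes 6 passed the filter on low counts and 3 (CRABP1, CRABP2 and STRA6) did not. DHRS3 passed it through its ADC libraries (39 to 80 counts), as its PBS counts of 0 to 10 did not exceed the minimum of 10. Its call is therefore not separate from its high level in ADC. The 2 calls, both higher in ADC, stand beside 10.8% called higher among all tested genes, and groups without overlap stand beside 14.2%. As the contrast was used to choose the set, nothing is read from these shares. Counts of a bulk sample do not tell a change in the RNA of each cell from a change in the share of cells that hold it.

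**Figure D1:**
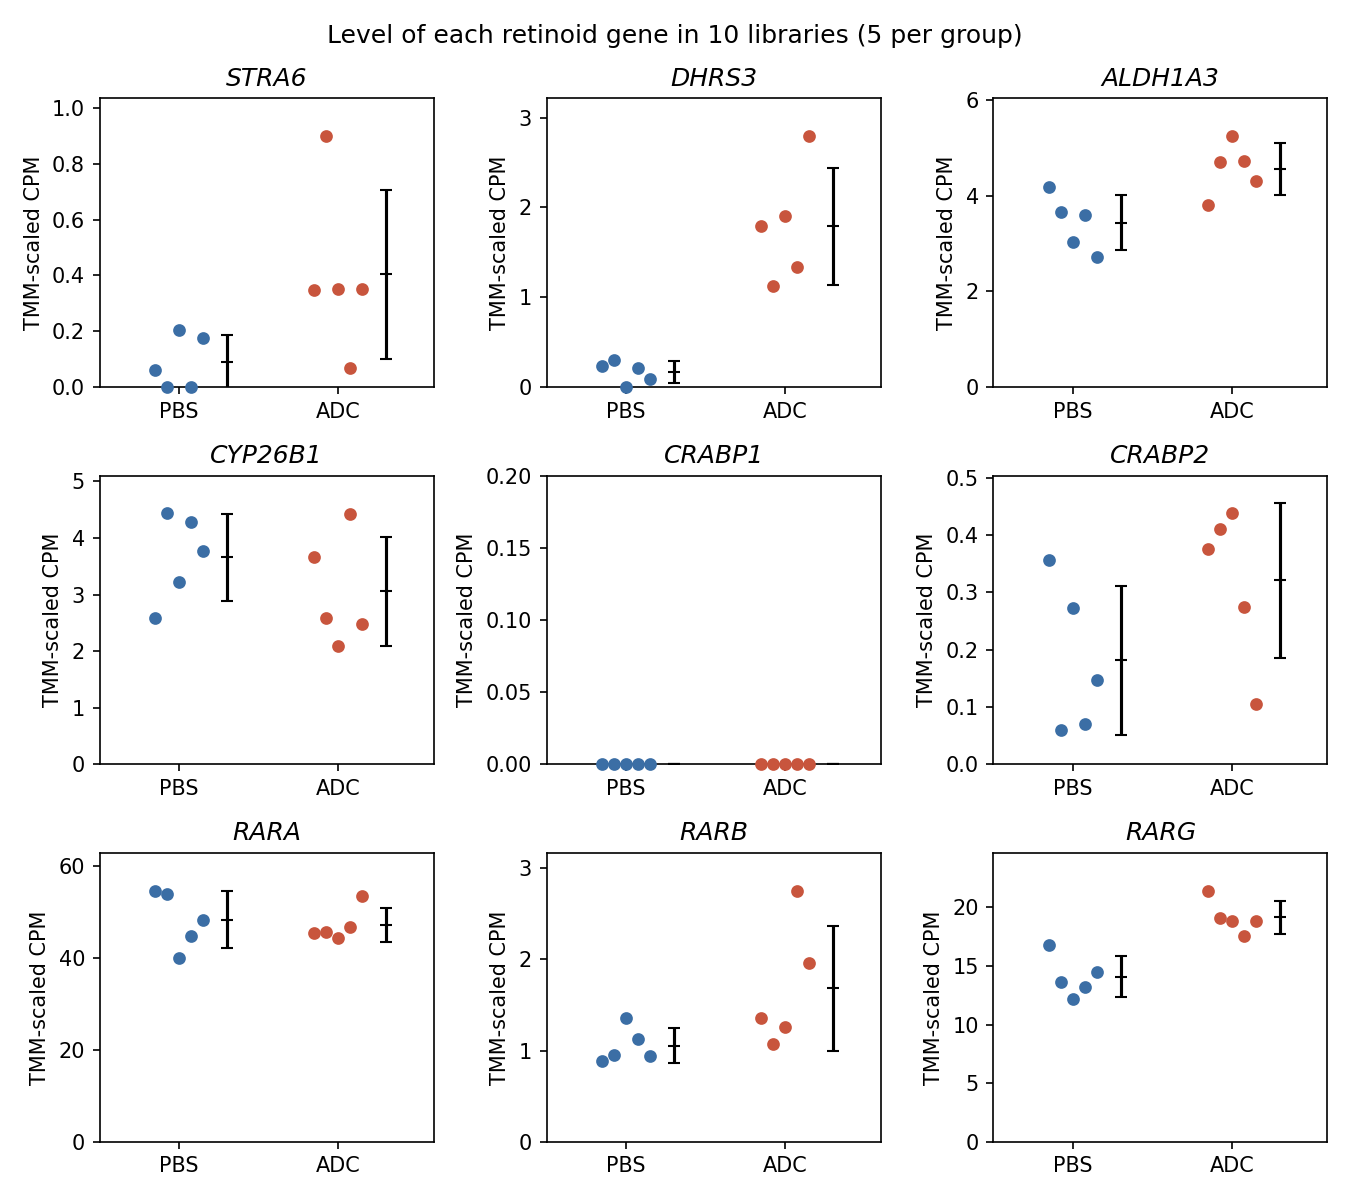
TMM-scaled CPM of the 9 genes in each of 5 PBS and 5 ADC libraries (points), with the mean and SD beside them; each panel has its own axis from 0. The ADC points of DHRS3 (1.12 to 2.80) and RARG (17.5 to 21.4) lie above all PBS points, and CRABP1 is at 0 throughout.

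DHRS3 (ENSG00000162496) lies on hg38 chromosome 1 from 12567910 to 12617731, on the minus strand. Its counts in PBS replicates 1 to 5 were 8, 10, 0, 6 and 3, and those in ADC replicates 1 to 5 were 62, 41, 65, 39 and 80. In scaled units these were 0.238, 0.296, 0, 0.212 and 0.0883 CPM with PBS and 1.79, 1.12, 1.90, 1.34 and 2.80 CPM with ADC. The gene was close to the detection limit in all 5 PBS libraries and above it in all 5 ADC libraries, and the lowest ADC count was several times the highest PBS count. The mean moved from 0.167 ± 0.12 CPM to 1.79 ± 0.65 CPM (SD, n = 5 each), a ratio of 10.7. The fitted log2 fold change was 3.37 (SE 0.45) and ranged from 3.08 to 3.69 when single libraries were left out. Because the PBS group sums to 27 counts, the size of the ratio is less certain than its direction. None of its 50-base words occurs in a transcript of another gene, and no other annotated gene overlaps its exons on either strand.

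STRA6 (ENSG00000137868, chromosome 15, 74179466 to 74212267, minus strand), the retinol receptor of the plasma membrane, had 2, 0, 6, 0 and 6 counts with PBS and 12, 33, 12, 2 and 10 counts with ADC. Of the ADC libraries 4 lay above all PBS libraries and replicate 4 lay among them, and replicate 2 alone gave 33 of the group's 69 counts. The means were 0.088 ± 0.097 CPM and 0.404 ± 0.304 CPM (SD, n = 5 each), so the PBS mean was at or under the level that an observed 0 allows. The gene did not pass the filter on low counts. With no filter the log2 fold change was 2.16 (SE 0.71), and it was called in 4 of the 7 alternatives that tested it (no filter, and with ADC replicate 4, PBS replicate 5 or PBS replicate 3 left out).

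ALDH1A3 (ENSG00000184254, chromosome 15, 100877714 to 100916626, plus strand) was the one retinal-oxidising ALDH1A gene with steady counts. It was at 4.19, 3.67, 3.03, 3.60 and 2.71 CPM with PBS and at 3.81, 4.70, 5.26, 4.74 and 4.31 CPM with ADC. Of the ADC libraries 4 exceeded every PBS library, and ADC replicate 1 lay inside the PBS range. The log2 fold change was 0.41 (SE 0.15), which lay on either side of the call threshold depending on the processing. Annotated exons of AC015712.2 on the opposite strand cover 27.5% of its exonic bases. That gene had 52 to 115 counts with PBS and 59 to 99 with ADC, beside 89 to 141 and 123 to 180 for ALDH1A3, and whether the libraries keep strand is not given in the sources used here.

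CYP26B1 (ENSG00000003137, chromosome 2, 72129238 to 72148038, minus strand) encodes a retinoic acid hydroxylase and was the most abundant of the CYP26 genes in these cells. Its levels were 2.58, 4.44, 3.23, 4.28 and 3.77 CPM with PBS and 3.67, 2.59, 2.10, 4.43 and 2.49 CPM with ADC. The groups overlapped widely, with 2 ADC libraries below the lowest PBS library and ADC replicate 4 level with the highest. The log2 fold change was -0.26 (SE 0.19), and it ranged from -0.42 to -0.15 when single libraries were left out. Per kilobase of gene length the ratio of ALDH1A3 to CYP26B1 was 0.859 ± 0.314 with PBS and 1.42 ± 0.525 with ADC (SD, n = 5 each). The groups overlapped in this ratio too, since PBS replicate 1 stood at 1.41 among PBS libraries of 0.624 to 0.814, and 2 ADC libraries stood at 0.903 and 0.929.

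Of the carriers, CRABP1 (ENSG00000166426, chromosome 15, 78340324 to 78348230, plus strand), which holds retinoic acid in the cytoplasm, had 0 counts in all 10 libraries. Annotated exons of AC011270.2 on the opposite strand cover 47.2% of the exonic bases of CRABP1. AC011270.2 also had 0 counts in all 10 libraries. Whether reads in the overlap were left uncounted was not tested. CRABP2 (ENSG00000143320, chromosome 1, 156699606 to 156705816, minus strand), which passes retinoic acid on to the receptors in the nucleus, had 12, 2, 8, 2 and 5 counts with PBS and 13, 15, 15, 8 and 3 counts with ADC. Its means of 0.181 ± 0.13 CPM and 0.321 ± 0.135 CPM (SD, n = 5 each) differed by about the spread of each group, and 3 ADC libraries exceeded the PBS maximum. A difference was not detectable at this depth for either carrier.

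RARA (ENSG00000131759, chromosome 17, 40309192 to 40357643, plus strand) was the most abundant receptor of the family, at 54.7, 54.0, 40.0, 44.9 and 48.4 CPM with PBS and 45.4, 45.6, 44.4, 46.7 and 53.6 CPM with ADC. All ADC values lay inside the PBS range, and the log2 fold change was -0.04 (SE 0.07). Exons of other genes on the opposite strand, mainly RARA-AS1, cover 17.9% of its exonic bases. RARA-AS1 itself had 2 to 10 counts with PBS and 0 to 6 with ADC, against 1174 to 1840 and 1361 to 1671 for RARA.

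RARG (ENSG00000172819, chromosome 12, 53210567 to 53232980, minus strand), the receptor best known from skin and skeletal tissue, was at 16.8, 13.6, 12.2, 13.2 and 14.5 CPM with PBS and at 21.4, 19.1, 18.8, 17.5 and 18.8 CPM with ADC. The groups did not overlap, although PBS replicate 1 and ADC replicate 4 were close, at 16.8 and 17.5 CPM. The mean moved from 14.0 ± 1.74 to 19.1 ± 1.43 CPM (SD, n = 5 each), with a log2 fold change of 0.45 (SE 0.09) and a range of 0.40 to 0.52 over single libraries left out. No other annotated gene overlaps its exons and none of its 50-base words occurs in another gene's transcripts, those of RARA and RARB included.

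RARB (ENSG00000077092, chromosome 3, 25174332 to 25597932, plus strand), whose promoter holds the direct repeat printed above, was low in both groups. It was at 0.891, 0.948, 1.36, 1.13 and 0.941 CPM with PBS and at 1.36, 1.07, 1.26, 2.75 and 1.96 CPM with ADC. ADC replicates 4 and 5 stood above every PBS library and the other 3 did not. The log2 fold change was 0.66 (SE 0.29) and ranged from 0.42 to 0.79 when single libraries were left out. Exons of TOP2B on the opposite strand cover 0.8% of the exonic bases of RARB. TOP2B had 7453 to 8710 counts with PBS and 6813 to 8932 with ADC, beside 30 to 40 and 39 to 80 for RARB. Whether TOP2B adds to the RARB counts was not tested.

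The 3 receptor transcripts together were at 13.3 ± 1.54 CPM per kilobase with PBS and 14.2 ± 0.826 CPM per kilobase with ADC (SD, n = 5 each), a difference smaller than the PBS spread. Their composition differed more. RARA made up 75.5% to 79.7% of the sum with PBS and 67.8% to 72.9% with ADC, and RARG made up 18.5% to 21.7% with PBS and 23.7% to 29.6% with ADC. Neither range overlapped between the groups. The shares are parts of 1 sum, so they are not separate results. RARA itself was nearly level (log2 fold change -0.04), and its lower share mirrors the higher level of RARG. RARB took 1.6% to 3.29% and 2.11% to 5.29%, with overlap.

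**Figure D2:**
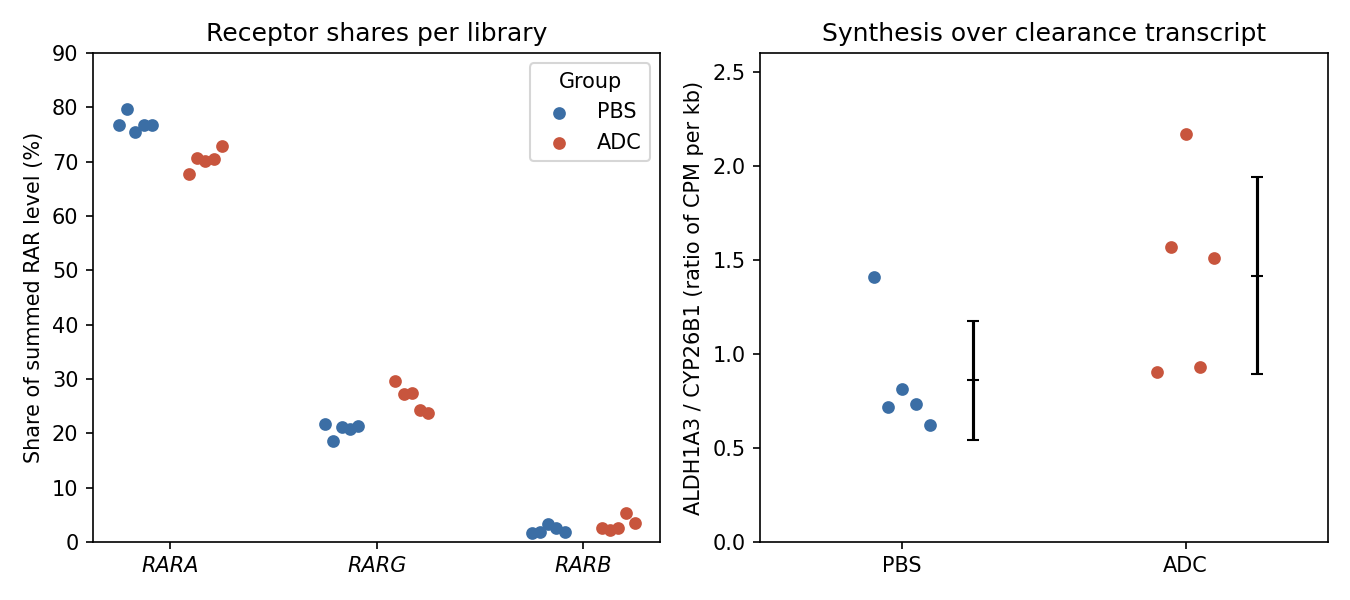
Left, share (%) of each receptor gene in the summed CPM per kilobase of RARA, RARB and RARG in each library; right, ratio of ALDH1A3 to CYP26B1 in CPM per kilobase, with mean and SD (n = 5 per group). The RARA and RARG shares, which are parts of 1 sum, separate the groups, while the ratio overlaps, with PBS replicate 1 at 1.41.

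Compared per kilobase, the PBS cells held RARA at 10.2 ± 1.31, RARG at 2.74 ± 0.339, CYP26B1 at 0.73 ± 0.153, ALDH1A3 at 0.596 ± 0.101, RARB at 0.285 ± 0.0525, CRABP2 at 0.165 ± 0.118, DHRS3 at 0.055 ± 0.0396 and STRA6 at 0.0114 ± 0.0126 CPM per kilobase (SD, n = 5), with CRABP1 at 0. The ranges of neighbours in this order did not overlap between RARA and RARG, between RARG and CYP26B1 and between ALDH1A3 and RARB. All other neighbours overlapped, so their order is not fixed by these libraries. In ADC libraries DHRS3 stood behind RARA, RARG, ALDH1A3 and CYP26B1, at 0.59 ± 0.214 CPM per kilobase. Its range overlapped those of ALDH1A3, CYP26B1, RARB and CRABP2.

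**Figure D3:**
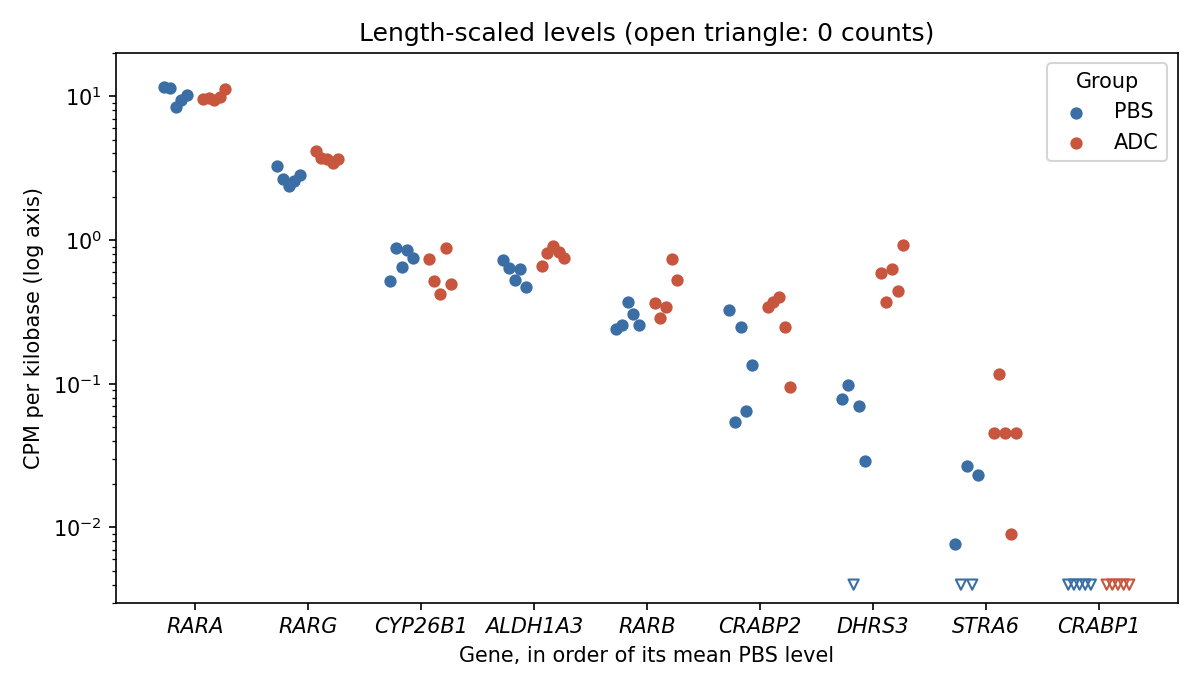
CPM per kilobase on a log axis for the 9 genes in 5 PBS and 5 ADC libraries (points), ordered by the PBS mean; open triangles at the foot mark libraries with 0 counts. RARA and RARG lead in both groups, and DHRS3 moves from a PBS mean of 0.055 to the level of CYP26B1 and RARB with ADC.

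Further genes of the pathway and genes related to it were described through 8 lists of genes outside the set. The lists of coregulators and of other short-chain dehydrogenases are not confined to retinoids. Together they hold 128 genes, of which 75 were tested, 24 rose, 7 fell and 44 were not called, with a median log2 fold change of 0.09 where the median of all tested genes was 0.00. The 31 called genes were 41.3% of those tested in the lists, beside 20.8% of all tested genes (10.8% higher in ADC). Of the 31 calls 10 came from the retinoic acid target genes and 8 from the coregulators. The lists were drawn up with earlier results of these data known, so nothing is read from the share of 41.3%. Of the 3 other genes that oxidise retinal to retinoic acid, none was tested: ALDH1A2 was at 0 in every library, and ALDH1A1 summed to 5 counts with PBS and 0 with ADC. ALDH1A3 was therefore the one gene of its enzyme group measured with any depth.

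Of 13 carrier and esterification genes 4 were tested. DGAT1, which can esterify retinol, rose by 0.19 (SE 0.07, adjusted p = 0.038 by edgeR). SCARB1, a receptor that takes up lipids and carotenoids, fell by 0.29 (SE 0.04, adjusted p = 2.7e-07), its level going from 183 ± 5.63 to 149.6 ± 5.79 CPM (SD, n = 5 each). FABP5, a fatty acid carrier that also binds retinoic acid, fell by 0.17 (SE 0.04, adjusted p = 0.0029), and RBP5 was not called.

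Of 25 oxidoreductases of retinol and retinal, 10 were tested, 2 rose, 0 fell and 8 were not called (median 0.05). RDH11, a retinal reductase, rose by 0.17 (SE 0.04, adjusted p = 0.0073 by edgeR), its level going from 91.1 ± 5.39 to 102 ± 5.74 CPM. AKR1B1, an aldose reductase that can also reduce retinal, rose by 0.50 (SE 0.04, adjusted p = 2e-10). RDH10, the main retinol dehydrogenase of embryonic retinoic acid synthesis, was not called at a log2 fold change of -0.23 (SE 0.09, adjusted p = 0.06), with 18.1 ± 1.92 CPM with PBS and 15.5 ± 1.69 CPM with ADC. It was called lower in ADC in 3 of 17 alternatives. Among 11 tested genes of 15 other short-chain dehydrogenases, the enzyme class of DHRS3, DHRS7 (0.19, SE 0.06) and DHRS11 (0.27, SE 0.09) rose, HSD17B8 (-0.35, SE 0.12) fell and 8 were not called. The adjusted p of these 3 ranged from 0.017 to 0.038, and the change of HSD17B8 was the largest in this list.

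Of 7 further cytochrome P450 genes that can oxidise retinoids, 2 were tested and both rose. CYP1B1, which can oxidise retinol and retinal among many substrates, rose by 0.66 (SE 0.05, adjusted p = 1.8e-11 by edgeR), its level going from 45.5 ± 0.989 to 71.9 ± 5.38 CPM. CYP2S1, a P450 that can metabolise retinoic acid, rose by 1.49 (SE 0.32, adjusted p = 0.00094), its level going from 0.599 ± 0.185 to 1.70 ± 0.499 CPM. The dedicated hydroxylases CYP26A1 and CYP26C1 were not tested, with 0 to 6 and 0 to 9 counts per library.

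Among 12 partner and related nuclear receptors 9 were tested, 2 rose, 1 fell and 6 were not called (median 0.04). RXRB, a partner of the RAR proteins, fell by 0.13 (SE 0.04, adjusted p = 0.017 by edgeR), its level going from 89.9 ± 1.41 to 82.5 ± 1.83 CPM, and RXRA was not called (-0.09, SE 0.05, adjusted p = 0.19). NR2F1, an orphan receptor known to be induced by retinoic acid, rose by 0.40 (SE 0.11, adjusted p = 0.0072), and NR2F6 rose by 0.14 (SE 0.05, adjusted p = 0.029). Of 20 coregulators 19 were tested, 6 rose, 2 fell and 11 were not called (median 0.06). The corepressor NCOR1 (0.14), the coactivators NCOA2 (0.22) and EP300 (0.15), the RAR-binding repressor NRIP1 (0.27) and TBL1X (0.17) rose, and TRIM24 (-0.22) and KAT2B (-0.18) fell. All of these changes were under 0.3 on the log2 scale, and 4 coregulators were called when PBS replicate 1 or 3 or ADC replicate 1 was left out, and 5 without PBS replicate 2.

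Of 33 genes known to respond to retinoic acid in other cells, 20 were tested, 9 rose, 1 fell and 10 were not called. Their median log2 fold change was 0.20, and 10 of 20 were called, where 20.8% of all tested genes were. The list holds genes that other signals also control (ICAM1 is a known NF-kB target), and some were already known to differ here when it was drawn up. PLAT, a plasminogen activator with a known retinoic acid response element, rose by 1.5 (SE 0.07, adjusted p = 1.7e-16 by edgeR), its level going from 19.5 ± 1.92 to 55.1 ± 5 CPM. IGFBP6, which binds IGF2, rose by 0.84 (SE 0.11, adjusted p = 1.2e-06), its level going from 5.15 ± 0.261 to 9.24 ± 1.01 CPM. The adhesion molecule ICAM1 (0.53, SE 0.05), the orphan receptor GPRC5A, first found as a retinoic acid-induced gene (0.38, SE 0.04), and NAV2 (0.29, SE 0.04) rose as well.

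TGM2, a transglutaminase widely used as a readout of retinoic acid, fell by 0.10 (SE 0.03, adjusted p = 0.015 by edgeR), its level going from 408 ± 9.94 to 381 ± 6.42 CPM. MEIS2 (0.06, SE 0.07) was not called, and the RARRES genes, named for their response to retinoids, were too low to be tested.

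**Figure D4:**
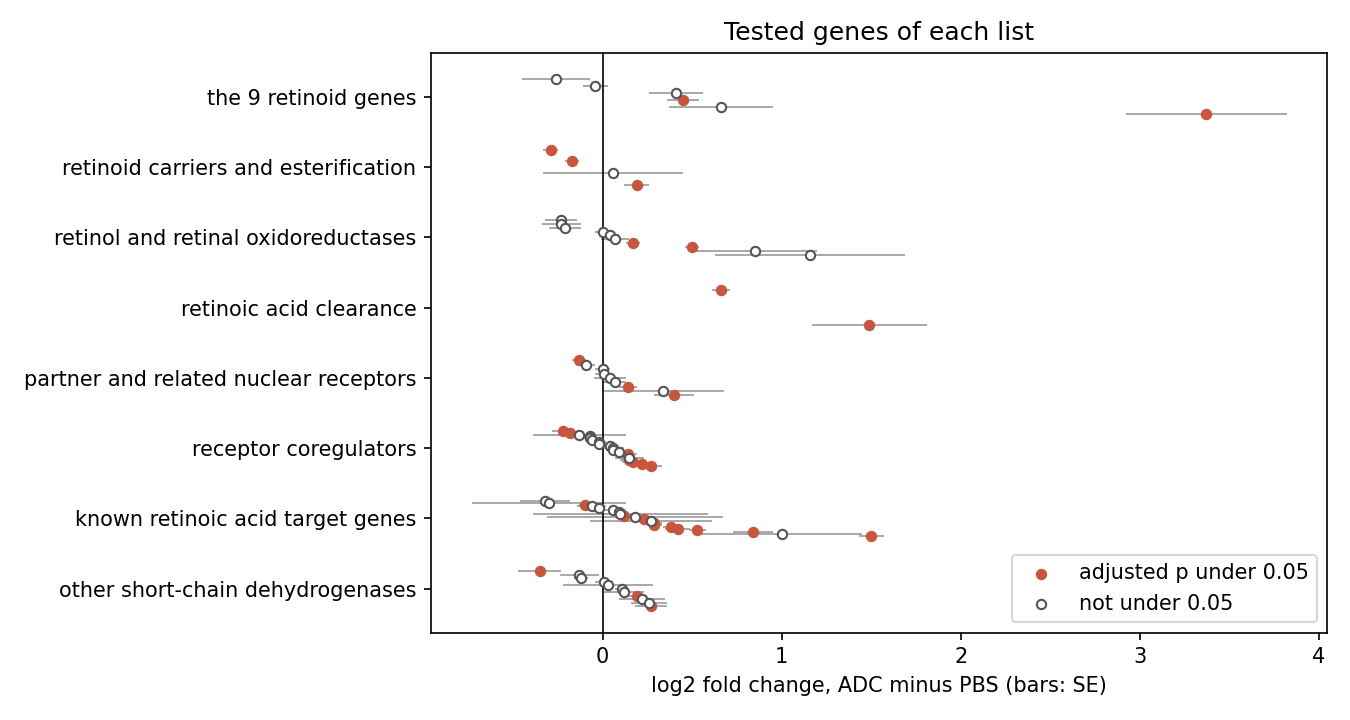
Log2 fold change (ADC minus PBS) with SE for the tested genes of each list; filled points passed an adjusted p of 0.05 in the fit over all genes. DHRS3 (3.37) lies far to the right, PLAT and CYP2S1 follow near 1.5, and coregulators and other short-chain dehydrogenases stay near 0.

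The genes whose profile over the 10 libraries was most like that of DHRS3 were sought among 9629 protein-coding genes with a mean of at least 5 CPM, by the root mean square difference of log2 CPM taken relative to each gene's PBS mean. They were IL1B (0.87), LAMA5 (1.05), RIPOR3 (1.12), CD248 (1.31) and RRAD (1.31), where a gene at its PBS mean in every library would stand at 2.37. The measure favours the genes with the largest increases, and each of these rose less than DHRS3, by 1.58 to 2.63 on the log2 scale. IL1B is a cytokine that macrophages also make. The 7 leukocyte markers examined summed to 0.579 to 2.40 CPM with PBS and 2.05 to 3.01 CPM with ADC. The highest was CSF1R, at 1.26 ± 0.682 and 2.10 ± 0.341 CPM (SD, n = 5 each), which was not called. The other 6 stayed under 1 CPM. Of these CD14 had means of 0.136 and 0.367 CPM, PTPRC and CD68 had lower means with ADC, and CD3E and LYZ were at 0 throughout. The part of such cells in the value of IL1B was not tested.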

How the data were processed

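The authors deposited raw counts per gene as whole numbers. Per the submitters' processing notes HISAT2, HISAT and TopHat2 were used, in roles that are not stated, with build hg38. Neither counting tool nor strand setting is stated there. All 58735 gene IDs were found in GENCODE 29 with the same positions, which gave exon overlap and 50-base words. The gene length in bases is the deposited one.

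Libraries were grouped by their labels. Counts were scaled with TMM factors (0.979 to 1.02), filtered with filterByExpr (minimum count 10, minimum total count 15) and tested with edgeR 4.0.16 (R 4.3.3), quasi-likelihood, two-sided, Benjamini-Hochberg over 14504 genes, threshold 0.05. Fold changes are ADC minus PBS. SEs were derived as |log2 fold change| over the root of F. The test was checked on simulated data. Replicates differed beyond sampling noise (chi-square of 5.18 to 16.5 per degree of freedom). Promoter sequences are from RefSeq (GRCh38.p14), and all 9 genes had one. Alternatives were DESeq2 1.42.0, library size alone, RLE factors, other filters, a replicate block, halved counts and each library left out.

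The 9 genes, the lists and the tests were chosen with earlier results of these data known. Named are the 9 genes, SSTR2, up to 5 called genes per list and direction with the smallest adjusted p, RXRA, RXRB, RDH10, ALDH1A1 and the 5 genes most like DHRS3. Other genes were chosen after their values were seen. A few genes first placed in the lists are not reported here and were left out of every list count.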

Additional observations from a re-analysis of the deposited data

Results flagged for a closer look

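In 5 of 88 groups of 5 libraries examined for the named genes, 1 library stood apart from the other 4, with its gap to the nearest more than 0.71 of the range of the group. For independent, normally distributed values chance would give about 1 such group in 20. Values near 0, such as those of ALDH1A1 and SSTR2, are not of that kind, so this rate is only a rough guide. RARA stood at 53.6 CPM in ADC replicate 5 and at 44.4 to 46.7 CPM in the other ADC libraries. SSTR2 stood at 0.749 CPM in PBS replicate 3 and at 0.0883 to 0.267 CPM in the others. NRIP1 stood at 33.8 CPM in PBS replicate 2 (others 36.4 to 37.4), ALDH1A1 at 0.136 CPM in PBS replicate 3 (others 0 to 0.0294) and RRAD at 9.98 CPM in PBS replicate 2 (others 7.49 to 7.90).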

How the results depend on the processing

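The contrast chose the 9 genes, so how often they passed the threshold is a description and no support. Over single libraries left out the log2 fold change was 3.08 to 3.69 for DHRS3 and 0.40 to 0.52 for RARG. ALDH1A3, not called in the main analysis, was called in 5 of 17 alternatives (DESeq2, library size alone, halved counts, without PBS replicate 1 and without ADC replicate 1), and STRA6, not tested there, in 4 of 7. The log2 fold change of RARA ranged from -0.10 to 0.01 over single libraries left out and changed sign without PBS replicate 1 (0.01) and without PBS replicate 2 (0.00). Of the 9 genes those called numbered 1 with a mean of at least 1 CPM, which leaves out DHRS3, and 2 to 3 without single libraries. The oxidoreductases called were 4 with DESeq2 and 2 to 3 without single libraries, and the other short-chain dehydrogenases called were 1 with no filter on low counts and 2 to 3 without single libraries. Coregulators called were 4 to 8 without single libraries, with 4 when PBS replicate 1 or 3 or ADC replicate 1 was left out and 5 without PBS replicate 2. The neighbours in the PBS order with ranges apart numbered 3 to 5, with 5 without PBS replicate 1, and retinoic acid target genes called 9 to 11. Of the named genes 8 lost their call in at least 1 alternative (DGAT1, DHRS11, EP300, HSD17B8, KAT2B, NCOR1, NR2F6 and TBL1X), HSD17B8 in 10 of 17. RDH10, not called in the main analysis, was called lower in ADC in 3 of 17. The causes were not tested. With the replicate number as a block 3152 genes were called; libraries with the same number did not deviate together (correlations of -0.007 to 0.04), so the number was not taken as a pairing. Depth limits CRABP1, CRABP2, STRA6, DHRS3 in PBS and RARB most.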

Other observations

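The nearest tested protein-coding genes on each side of the 9 genes were looked up after the values of the set were seen. Of the 18 neighbours 5 were called, 3 of them higher and 2 lower in ADC, where 20.8% of all tested genes were called. The neighbours of DHRS3 were VPS13D, 55.9 kb away (log2 fold change 0.10, SE 0.06, adjusted p = 0.27 by edgeR), and PRDM2, 1080 kb away (-0.11, SE 0.06, adjusted p = 0.19). Those of RARG were ZNF740 (0.11, SE 0.05, adjusted p = 0.13) and MFSD5 (-0.02, SE 0.06, adjusted p = 0.87). CRABP2 lies between NES, the gene of the intermediate filament nestin, which rose by 0.57 (SE 0.07, adjusted p = 1.3e-07), and ISG20L2, which fell by 0.29 (SE 0.04, adjusted p = 3.5e-06). Both neighbours of CYP26B1 rose, DYSF, 442 kb away, by 0.37 (SE 0.10, adjusted p = 0.0064) and EXOC6B by 0.19 (SE 0.06, adjusted p = 0.025). CDC6, next to RARA, fell by 0.15 (SE 0.04, adjusted p = 0.0059). The other neighbours of the 9 genes were not called.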
